A study of Mus musculus with 9 samples.

Results

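The RANKL, OPG and CSF1 axis was examined through 7 genes chosen for their role, out of 27179 genes in the count table. They were *Tnfsf11*, *Tnfrsf11a*, *Tnfrsf11b*, *Csf1*, *Csf1r*, *Traf6* and *Nfatc1*, and all 7 passed the filter on low counts that left 16329 genes for testing. The study sequenced poly(A) RNA from whole pulverized mandibles, teeth included, to ask which genes accompany bone loss in the jaw of mice lacking the inhibitory Fc receptor FcγRIIB. Each library came from 1 mouse. The control group was 5 WT libraries, from 6-month-old C57BL/6 mice. The other group was 4 libraries labelled FcγRIIB-/-, from males of the same age and background with a whole-body deletion that is not restricted to bone. The labels name no treatment for either group.

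Osteoclasts, the cells that resorb bone, arise from myeloid precursors under the control of CSF1 and RANKL. CSF1 binds CSF1R on the precursor and keeps it alive and dividing, and RANKL, made by osteoblast-lineage cells, osteocytes and lymphocytes, binds RANK and drives the precursor to fuse and resorb. OPG is a secreted decoy receptor that captures RANKL before it reaches RANK, so the balance of RANKL to OPG is widely used as a readout of the drive to resorption. Inside the precursor, RANK recruits the adaptor TRAF6, and the signal ends on NFATc1, the master transcription factor of the osteoclast.

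Transcripts of *Fcgr2b*, which encodes FcγRIIB, were checked first. They lay between 17.04 and 38.28 normalised counts (CPM, counts scaled to the size of each library) in the WT libraries and between 25.97 and 32.13 CPM in the libraries labelled FcγRIIB-/-, with a log2 fold change of 0.21 ± 0.20 (SE) and an edgeR adjusted p of 0.442. The counts were thus not lower under the deletion label, and the position of the deletion within the transcript is not given in the sources used here. For this reason the groups are called by their labels throughout. A negative log2 fold change means lower in the libraries labelled FcγRIIB-/-, and values after ± are SD across libraries unless SE is named.

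Library totals ran from 24158960 to 26787359 counts in WT and from 21453880 to 28991631 in the libraries labelled FcγRIIB-/-. Over all tested genes, 19.3% were called lower and 14% higher, at a Benjamini-Hochberg adjusted p under 0.05 in the quasi-likelihood test of edgeR, and the median log2 fold change was 0.006. WT 2 and WT 5 stood apart from the other WT libraries in several cell type lists. WT 2 held 64.77 CPM of summed T cell markers against 12.3 to 19.36 in the other WT libraries, and WT 5 held 351.5 CPM of *Sost*, an osteocyte gene, against 10.4 to 22.7. WT 2 also held 105.9 CPM of summed B lineage markers against 41.91 to 55.32 in the other WT libraries. For summed neutrophil markers WT 5 held 3452 CPM against 1134 to 1785. Bone and tooth markers were high in every library, with at least 42840 CPM of summed osteoblast markers and at least 12060 CPM of summed odontoblast and ameloblast markers. The osteoblast sum was mostly the collagen genes *Col1a1* and *Col1a2*, with WT means of 31250 and 18060 CPM.

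The promoters of the ligand *Tnfsf11*, the ligand *Csf1* and the adaptor *Traf6* are shown because the first was the most variable of the 7 genes among the libraries labelled FcγRIIB-/- and the others were the least variable in both groups. Each run is the 250 bases before the RefSeq start on GRCm38.p6, 5′ to 3′ on the strand of the gene, and 4 of the 7 genes had an entry in the RefSeq promoter table. Capitals mark the GC box bound by Sp1, searched as GGGCGG on both strands. They also mark the core of a TATA box, searched as TATAA on both strands. The windows are chr14:78308044-78308293 on the minus strand for *Tnfsf11*, chr3:107760470-107760719 on the minus strand for *Csf1* and chr2:101678170-101678419 on the plus strand for *Traf6*.
Tnfsf11: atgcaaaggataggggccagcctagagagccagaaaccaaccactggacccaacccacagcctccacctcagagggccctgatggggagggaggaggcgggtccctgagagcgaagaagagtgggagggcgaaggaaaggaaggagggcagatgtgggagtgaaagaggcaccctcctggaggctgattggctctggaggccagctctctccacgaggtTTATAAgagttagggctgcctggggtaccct
Csf1: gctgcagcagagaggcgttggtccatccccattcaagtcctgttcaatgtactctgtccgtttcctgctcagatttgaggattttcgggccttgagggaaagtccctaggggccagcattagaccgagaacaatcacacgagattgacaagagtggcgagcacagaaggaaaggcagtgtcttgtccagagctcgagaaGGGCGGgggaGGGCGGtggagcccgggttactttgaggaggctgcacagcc
Traf6: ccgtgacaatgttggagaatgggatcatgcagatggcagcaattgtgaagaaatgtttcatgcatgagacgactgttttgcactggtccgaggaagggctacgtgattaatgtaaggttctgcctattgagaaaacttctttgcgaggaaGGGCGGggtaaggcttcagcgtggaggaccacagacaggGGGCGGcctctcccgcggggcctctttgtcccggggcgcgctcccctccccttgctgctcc

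The *Tnfsf11* window held a pair of overlapping TATAA matches, 1 in each orientation, and 0 GC boxes, at a GC content of 60.4%. The *Csf1* and *Traf6* windows each held 2 GC boxes and 0 TATAA, at 56.4% GC in both. *Tnfrsf11a*, the remaining gene with an entry, held 4 GC boxes and 0 TATAA at 73.6% GC. Its window, chr1:105780473-105780722 on the plus strand, runs past the gene start of 105780673 given below. The coefficient of variation of *Tnfrsf11a* was 16.1% in WT and 21.4% in the libraries labelled FcγRIIB-/-. Whether these matches go with the spread of a gene was not tested. Among 32851 RefSeq promoter windows of the same length, 32.7% held a GC box and 22.8% held TATAA, in either orientation. These are letter matches and not mapped binding sites.

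Of the 7 genes, 5 were called lower under the FcγRIIB-/- label, against 19.3% of all tested genes (19.7% in the DESeq2 alternative), and 0 were called higher. These were *Tnfrsf11b*, *Csf1*, *Csf1r*, *Traf6* and *Nfatc1*, with fitted levels between 22.0% and 46.8% below WT. The 7 genes were chosen with earlier results of these data known, so their share of calls is a description and not a test. The study had already listed *Tnfrsf11b*, *Nfatc1* and *Csf1* among its downregulated genes. For the same 5 genes the WT and FcγRIIB-/- labelled libraries did not overlap in CPM, which was the case, in the lower direction, for 17.5% of all tested genes. *Tnfsf11* and *Tnfrsf11a*, the ligand RANKL and its receptor RANK, overlapped between the groups and did not pass the test. The 5 calls were made in each of 17 other fits, which changed the normalization, the filter, the test or the libraries used. In a bulk sample of whole mandible, fewer cells of a type and less RNA per cell cannot be told apart.

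**Figure D1:**
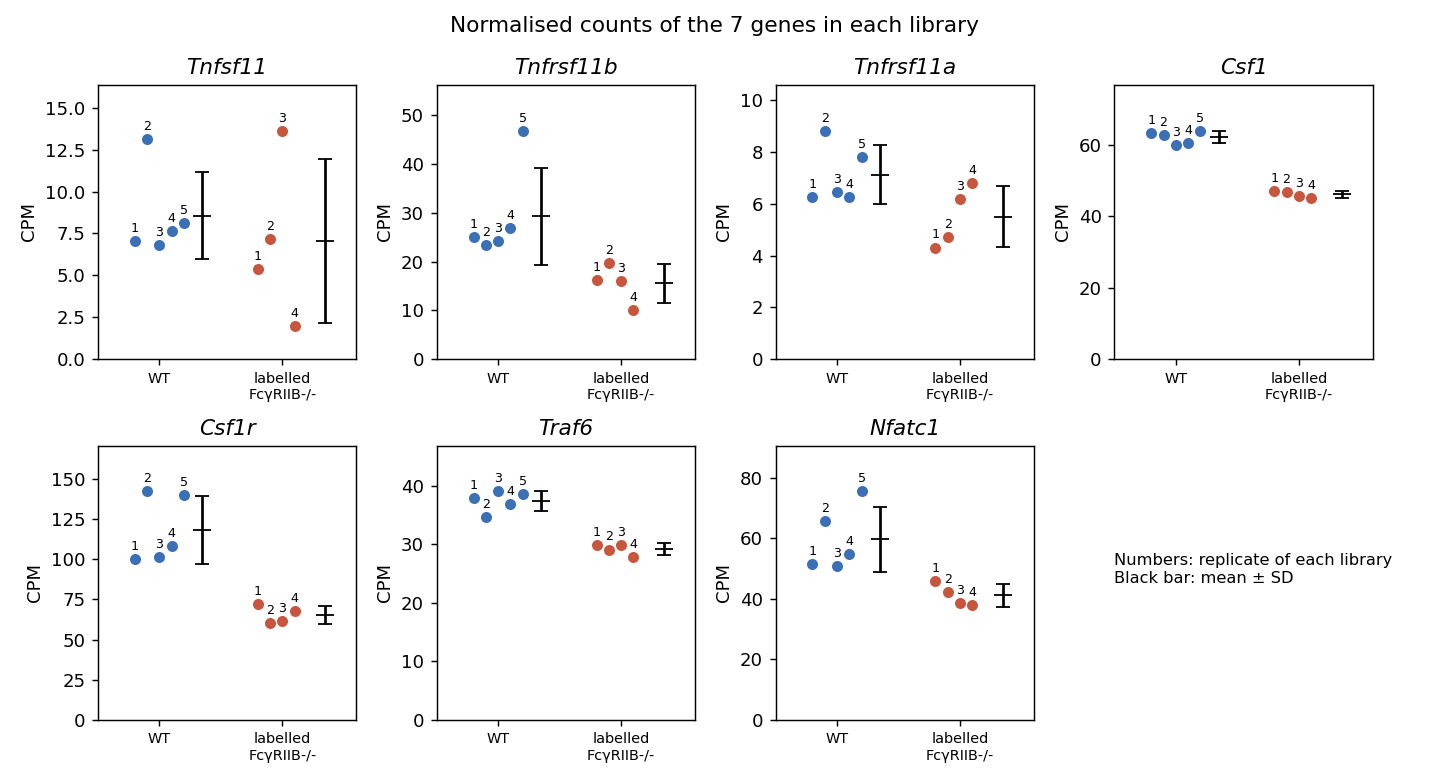
Normalised counts (CPM, linear axes from 0) of each of the 7 genes in the 5 WT libraries (blue) and the 4 libraries labelled FcγRIIB-/- (red). Each point is 1 library with its replicate number, and black bars give the mean ± SD. The groups are separate for *Tnfrsf11b*, *Csf1*, *Csf1r*, *Traf6* and *Nfatc1* and overlap for *Tnfsf11* and *Tnfrsf11a*.

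*Tnfsf11* (gene ID 21943, chr14:78277446-78308043, minus strand) encodes RANKL, the membrane-bound or shed ligand that osteoclast precursors require. It was measured at 7.028, 13.12, 6.824, 7.673 and 8.12 CPM in WT 1 to 5. In the libraries labelled FcγRIIB-/- 1 to 4 it was at 5.361, 7.163, 13.64 and 1.976 CPM, from 153, 155, 322 and 39 counts. WT 2 was above the other WT libraries, whereas the FcγRIIB-/- labelled group held both the highest and the lowest value of all 9 libraries. Its spread in that group was 6.9-fold from lowest to highest (coefficient of variation 69.7%), against 1.92-fold in WT (30.5%). The means were 8.55 ± 2.61 CPM in WT (n = 5) and 7.04 ± 4.90 CPM in the libraries labelled FcγRIIB-/- (n = 4). The log2 fold change was -0.28 ± 0.42 (SE) with an edgeR adjusted p of 0.643, so it did not exceed the spread within the groups. Its sign rested on single libraries. Without FcγRIIB-/- 4 the log2 fold change was 0.028, without FcγRIIB-/- 3 it was -0.814, and the adjusted p stayed between 0.129 and 0.959 with any 1 library left out. WT 2, the highest WT library for *Tnfsf11*, also held the most T cell marker CPM, at 64.77. FcγRIIB-/- 3, the highest of all 9 libraries for *Tnfsf11*, held 14.36 CPM of T cell markers. The part of T cells in the *Tnfsf11* values was not tested.

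*Tnfrsf11b* (gene ID 18383, chr15:54250619-54278484, minus strand) encodes OPG, the secreted decoy that neutralises RANKL. It was measured at 25, 23.39, 24.21, 26.84 and 46.89 CPM in WT 1 to 5, and at 16.29, 19.69, 16.01 and 10.14 CPM in the libraries labelled FcγRIIB-/- 1 to 4. WT 5 lay well above the other WT libraries and FcγRIIB-/- 4 was the lowest of all, yet every WT library exceeded every library labelled FcγRIIB-/-. Its mean of 29.3 ± 9.93 CPM in WT (n = 5) compared with 15.5 ± 3.97 CPM (n = 4), and the fitted level was 46.8% lower (log2 fold change -0.91 ± 0.24 SE, edgeR adjusted p = 0.0151). Without WT 5 the log2 fold change was -0.653, still past the threshold, and the adjusted p reached at most 0.0381 with any 1 library left out. Summed markers of the periodontal ligament and fibroblasts were lower as well, at 21980 to 34700 CPM in WT and 10100 to 14440 CPM in the other group. WT 5 was again highest and FcγRIIB-/- 4 again lowest. Most of this sum was *Col3a1* and *Postn*, with WT means of 13520 and 8486 CPM. In that list 5 of 9 markers were called lower, 4 were not called and none was at 0. Summed osteoblast markers, mostly *Col1a1* and *Col1a2*, overlapped between the groups, at 45730 to 66430 against 42840 to 52970 CPM, with 3 of 10 called lower. The part of these cells in the lower *Tnfrsf11b* was not tested.

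*Tnfrsf11a* (gene ID 21934, chr1:105780673-105849444, plus strand) encodes RANK, the receptor on precursors and osteoclasts. Its levels were 6.268, 8.828, 6.438, 6.278 and 7.808 CPM in WT 1 to 5, and 4.31, 4.714, 6.186 and 6.791 CPM in the libraries labelled FcγRIIB-/- 1 to 4. FcγRIIB-/- 1, 2 and 3 were below every WT library, the third of them narrowly, whereas FcγRIIB-/- 4 was above 3 WT libraries. The means were 7.12 ± 1.15 and 5.50 ± 1.18 CPM, and the log2 fold change of -0.38 ± 0.17 (SE) did not pass the test (edgeR adjusted p = 0.120). The adjusted p lay between 0.0658 and 0.276 with any 1 library left out.

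*Csf1* (gene ID 12977, chr3:107741048-107760469, minus strand) encodes the survival and growth factor of the macrophage and osteoclast lineage, made by osteoblasts, stromal cells and many other cells. WT 1 to 5 were at 63.4, 62.8, 60.02, 60.61 and 64.02 CPM, and the libraries labelled FcγRIIB-/- 1 to 4 at 47.13, 46.91, 45.59 and 45.05 CPM. Both groups were tight, with coefficients of variation of 2.83% and 2.19%, and a wide gap lay between the lowest WT library and the highest library labelled FcγRIIB-/-. Means of 62.2 ± 1.76 and 46.2 ± 1.01 CPM gave a 25.7% lower fitted level, with a log2 fold change of -0.43 ± 0.05 (SE) and an edgeR adjusted p of 4.41e-04, the smallest of the 7 genes. Leaving out any 1 library moved the log2 fold change only between -0.438 and -0.396. Summed marrow stromal markers were also lower, at 436.6 to 628.2 CPM in WT and 322.1 to 370.4 CPM in the libraries labelled FcγRIIB-/-. Most of this sum was *Cxcl12*, with a WT mean of 343.5 CPM. Of the 7 stromal markers, 4 were called lower, *Kitl* was called higher, and none was at 0. The 2 not called, *Foxc1* and *Ebf3*, had log2 fold changes of -0.02 and -0.07. *Kitl* lost its call in 3 of the 17 other fits, among them library totals only (edgeR adjusted p = 0.105). Summed endothelial markers, from another source of *Csf1*, lay at 515.6 to 573.6 and 516.6 to 595.7 CPM, with 1 of 8 called lower. The part of stromal cells in the lower *Csf1* was not tested.

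*Csf1r* (gene ID 12978, chr18:61105572-61131139, plus strand) encodes the receptor tyrosine kinase for CSF1 and IL-34 on monocytes, macrophages and osteoclast precursors. It was measured at 100, 142.4, 101.3, 108.5 and 140.1 CPM in WT 1 to 5, and at 71.9, 60.17, 61.6 and 67.55 CPM in the libraries labelled FcγRIIB-/- 1 to 4. WT 2 and WT 5 stood above the other WT libraries, and the lowest WT library was still above every library labelled FcγRIIB-/-. Means of 118 ± 21.1 and 65.3 ± 5.44 CPM gave a 44.9% lower fitted level (log2 fold change -0.86 ± 0.12 SE, edgeR adjusted p = 0.00105). Without both WT 2 and WT 5, a fit added after the values were seen, the log2 fold change was -0.638 and the call was kept. The exons of *Csf1r* overlap those of *Hmgxb3* on the other strand. The strand setting of the counting and its treatment of reads matching several genes are not given in the sources used here. How reads in the overlap were counted is therefore not known. *Hmgxb3* itself had a log2 fold change of -0.02 (edgeR adjusted p = 0.823).

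Macrophage markers did not move as a block with *Csf1r*. Their summed CPM ran from 848.2 to 1336 in WT and from 656.7 to 890.6 in the libraries labelled FcγRIIB-/-, 7 of 14 were called lower, 0 higher, and none was at 0. The markers called lower with the largest fold changes were *Ly6c2* (log2 fold change -3.82) and *Ccr2* (-1.47), both of inflammatory monocytes, and the abundant *Lyz2* (-1.30) of the whole myeloid lineage was also lower. The remaining 4 lower genes, named after their values were seen, were the mannose receptor *Mrc1* (-0.93, edgeR adjusted p = 0.00335), the chemokine receptor *Cx3cr1* (-0.86, 0.0103), the lysosomal *Cd68* (-0.63, 0.0188) and *Adgre1* (-0.60, 0.0205), which encodes F4/80. *Cd68* was not called without FcγRIIB-/- 1 or 3 (adjusted p up to 0.0513), nor *Adgre1* without FcγRIIB-/- 2 or 4 (up to 0.0551). Among the 7 not called, and also chosen after the values were seen, the complement genes *C1qa*, *C1qb* and *C1qc* had log2 fold changes of -0.06, 0.20 and 0.04, and the efferocytosis receptor *Mertk* of 0.08, and these 4 did not pass the test. Summed neutrophil markers were at 1134 to 3452 CPM in WT and 139.6 to 417.1 CPM, with 10 of 10 called lower, and summed erythroid markers at 976.8 to 1160 and 55.82 to 241.5 CPM, with 7 of 7 called lower. B lineage markers were lower for 7 of 8 genes, with sums of 41.91 to 105.9 and 13.54 to 31.12 CPM. The part of these cells in the lower *Csf1r* was not tested.

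*Traf6* (gene ID 22034, chr2:101678420-101701668, plus strand) encodes the ubiquitin ligase and adaptor that carries RANK signals, and those of interleukin-1 and Toll-like receptors, to NF-κB and MAP kinases. Its levels were 37.93, 34.71, 39.05, 36.89 and 38.53 CPM in WT 1 to 5, and 29.82, 29.11, 29.95 and 27.87 CPM in the libraries labelled FcγRIIB-/- 1 to 4. As with *Csf1*, the groups were narrow and did not overlap. Means of 37.4 ± 1.72 and 29.2 ± 0.952 CPM gave a 22.0% lower fitted level, the smallest of the 5 (log2 fold change -0.36 ± 0.06 SE, edgeR adjusted p = 0.00201). It lay between -0.37 and -0.325 with any 1 library left out.

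*Nfatc1* (gene ID 18018, chr18:80606205-80713071, minus strand) encodes the calcineurin-dependent factor that RANKL induces and that then sustains its own transcription. It was measured at 51.44, 65.85, 50.77, 54.7 and 75.58 CPM in WT 1 to 5, and at 45.97, 42.15, 38.6 and 37.96 CPM in the libraries labelled FcγRIIB-/- 1 to 4. The high WT libraries were WT 2 and WT 5, as for *Csf1r*, and the gap between WT 3 and FcγRIIB-/- 1 was small. Means of 59.7 ± 10.8 and 41.2 ± 3.69 CPM gave a 31.0% lower fitted level (log2 fold change -0.53 ± 0.12 SE, edgeR adjusted p = 0.00885). Without both WT 2 and WT 5 the log2 fold change was -0.322, a change of over 1.5 times, and the adjusted p was 0.0248. Summed osteoclast markers were lower as well, at 944.3 to 1344 CPM in WT, with WT 2 and WT 5 again highest, and 320 to 566.5 CPM in the libraries labelled FcγRIIB-/-. Among these 10 markers, 9 were called lower and none was at 0. The part of osteoclast number in the lower *Nfatc1* was not tested.

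**Figure D2:**
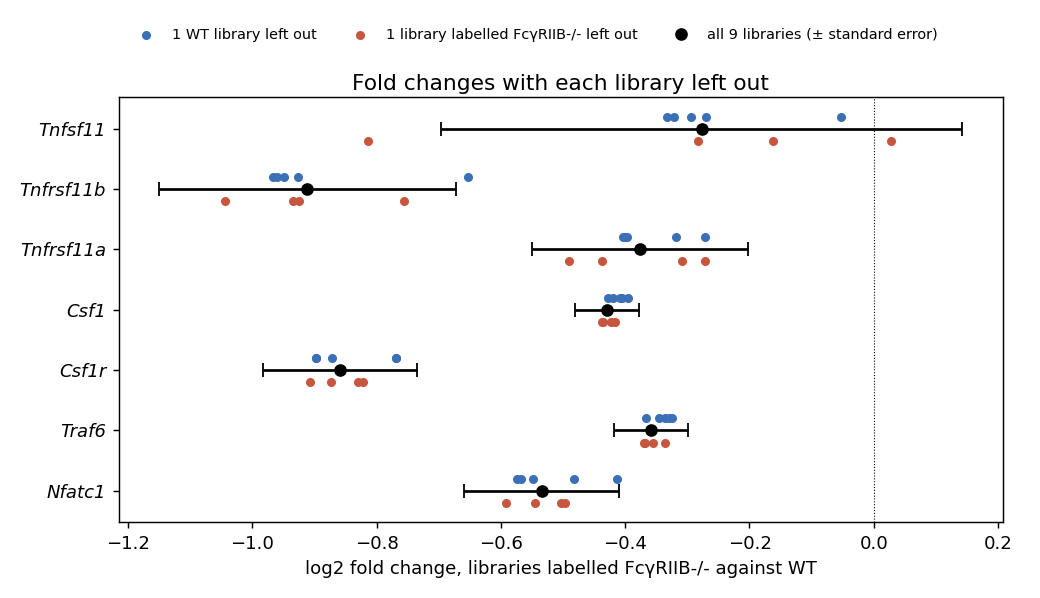
Log2 fold change of the libraries labelled FcγRIIB-/- against WT for each of the 7 genes, from all 9 libraries (black, ± standard error) and with 1 library left out (blue for a WT library, red for a library labelled FcγRIIB-/-). *Tnfsf11* ranges from -0.814 to 0.028 across the left-out libraries, whereas *Csf1* stays between -0.438 and -0.396.

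Levels of the genes were compared with each other only per kilobase of exon, taking the union of exons of each gene in the GENCODE vM21 annotation. In WT, *Csf1r* had the highest level, at 20.5 ± 3.65 CPM per kb, followed by *Csf1* at 11.8 ± 0.333 and *Tnfrsf11b* at 10.4 ± 3.53. The last 2 overlapped between libraries, as did *Tnfrsf11b* and *Nfatc1* (7.99 ± 1.44). *Traf6* followed at 4.75 ± 0.218 CPM per kb and overlapped with *Tnfsf11* at 3.83 ± 1.16, and *Tnfrsf11a* was the lowest at 1.19 ± 0.192. In the libraries labelled FcγRIIB-/- the levels per kb were 11.3 ± 0.941 for *Csf1r*, 8.74 ± 0.191 for *Csf1*, 5.51 ± 1.41 for *Tnfrsf11b* and 5.51 ± 0.494 for *Nfatc1*. They were 3.70 ± 0.121 for *Traf6*, 3.15 ± 2.19 for *Tnfsf11* and 0.919 ± 0.197 for *Tnfrsf11a*. Among these, *Tnfrsf11b* overlapped with *Nfatc1* and with *Traf6*, *Nfatc1* and *Traf6* did not overlap, and *Tnfsf11* overlapped with *Traf6* and with *Tnfrsf11a*. On this scale the mean of the decoy OPG was above that of its ligand in both groups, although *Tnfsf11* in FcγRIIB-/- 3, at 6.10 CPM per kb, was within the range of *Tnfrsf11b* in its group (3.60 to 6.99).

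The balance of ligand to decoy was then taken as the ratio of *Tnfsf11* to *Tnfrsf11b* counts within each library, in which library size cancels. This ratio asks whether the drop in OPG mRNA shifted the balance towards RANKL. It was 0.281, 0.561, 0.282, 0.286 and 0.173 in WT 1 to 5, and 0.329, 0.364, 0.852 and 0.195 in the libraries labelled FcγRIIB-/- 1 to 4. WT 1, 3 and 4 lay close together, while both the highest and the second lowest ratio of all 9 libraries were in the FcγRIIB-/- labelled group. The 95% exact intervals, which cover counting error only, ran from 0.732 to 0.991 in FcγRIIB-/- 3 and from 0.135 to 0.276 in FcγRIIB-/- 4, and these intervals did not overlap. The mean ratio was 0.317 ± 0.145 in WT and 0.435 ± 0.287 in the libraries labelled FcγRIIB-/-. The difference of mean log2 ratios was 0.353, with a 95% interval of -0.76 to 1.59, and it did not pass a two-sided exact permutation test over all splits of the 9 mice (p = 0.508, adjusted over the 3 ratios 0.762). The groups overlapped, and a difference of either sign remained within the interval. Without FcγRIIB-/- 3 the difference was -0.041.

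The ratio of *Tnfsf11* to its receptor *Tnfrsf11a* was 1.12, 1.49, 1.06, 1.22 and 1.04 in WT 1 to 5, and 1.24, 1.52, 2.21 and 0.291 in the libraries labelled FcγRIIB-/- 1 to 4. The WT libraries were within a narrow range, with FcγRIIB-/- 2 narrowly and FcγRIIB-/- 3 clearly above all of them and FcγRIIB-/- 4 below. The log2 difference was -0.164, with a 95% interval of -1.71 to 0.80 (two-sided exact permutation p = 0.929, adjusted p = 0.929). Without FcγRIIB-/- 4, whose *Tnfsf11* rested on 39 counts, the difference was 0.453 and the exact permutation p was 0.0536.

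The ratio of *Csf1* to *Csf1r* counts was 0.634, 0.441, 0.592, 0.559 and 0.457 in WT 1 to 5, and 0.655, 0.78, 0.74 and 0.667 in the libraries labelled FcγRIIB-/- 1 to 4. Every library labelled FcγRIIB-/- was above every WT library, though WT 1 and FcγRIIB-/- 1 were separated by less than their counting intervals, 0.597 to 0.673 and 0.611 to 0.702. The mean ratio was 0.537 ± 0.0845 in WT and 0.71 ± 0.0594 in the other group. The receptor was reduced more than the ligand, by a factor of 1.33 (log2 difference 0.416, 95% interval 0.08 to 0.77), with a two-sided exact permutation p of 0.0159 and a p adjusted over the 3 ratios of 0.0476. This call was narrow. The unadjusted p was 0.0536 without FcγRIIB-/- 2 (log2 difference 0.370) and also without FcγRIIB-/- 3 (0.395), and the sign was kept in each. Without WT 2 and WT 5 the log2 difference was 0.254 (exact permutation p = 0.0571), and with medians in place of means it was 0.330 (p = 0.111).

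**Figure D3:**
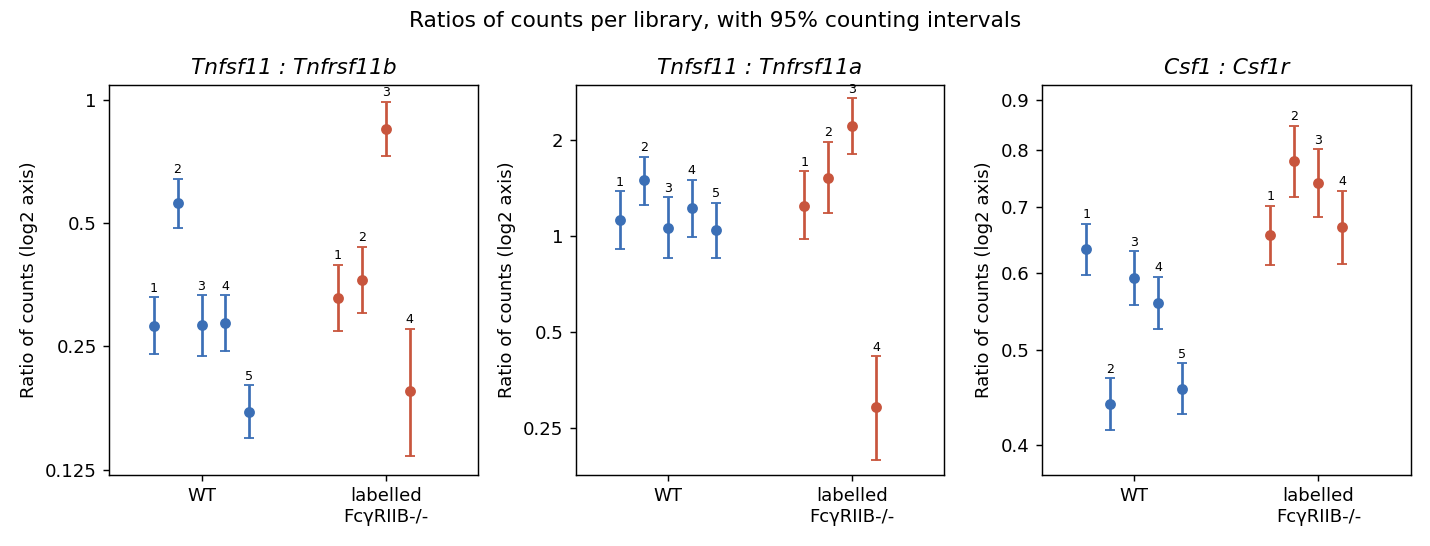
Ratios of raw counts within each library on log2 axes, for *Tnfsf11* to *Tnfrsf11b*, *Tnfsf11* to *Tnfrsf11a* and *Csf1* to *Csf1r*, in WT (blue) and libraries labelled FcγRIIB-/- (red), with replicate numbers. Bars are 95% exact intervals of counting error. The groups overlap in the left and middle panels, and in the right panel the 4 libraries labelled FcγRIIB-/- (0.655 to 0.78) are above the 5 WT libraries (0.441 to 0.634).

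Around these genes, 144 genes of the pathway were arranged in 12 lists by role, and each list was described by its count of calls beside the 19.3% lower and 14% higher among all tested genes and the overall median of 0.006. The other genes acting at the ligand and receptor step did not pass the test. *Lgr4*, an alternative receptor of RANKL, had a log2 fold change of 0.19 (edgeR adjusted p = 0.217), and *Il34*, the second ligand of CSF1R, of -0.14 (0.562). Of the proteases that shed RANKL from the membrane, 3 of 4 tested were lower, namely *Adam19* (-0.61, adjusted p = 0.00154), *Mmp14* (-0.59, 0.00242) and *Adam17* (-0.24, 0.0394), with a list median of -0.42. *Adam10* had a log2 fold change of -0.13 (0.193), and *Mmp7*, with at most 2 counts in any library, was not tested. *Adam17* lost its call when WT 1, 2, 3, 4 or 5 or FcγRIIB-/- 1, 2 or 4 was left out, with log2 fold changes between -0.286 and -0.181 and an adjusted p of up to 0.117.

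Signals that raise RANKL in bone cells were mixed. Of 19 tested inducers of RANKL and their receptors, 6 were lower, 1 was higher and 12 did not pass, with a median log2 fold change of -0.24. The cytokine *Il1a* (-1.43, edgeR adjusted p = 0.00796) and the interleukin-6 receptor chain *Il6ra* (-1.13, 7.84e-04) were lower, as was the shared chain *Il6st* (-0.47, 0.00419), and the cytokine *Il11* was higher (0.73, 0.0149). *Tnfrsf1a*, the main receptor of TNF, was at 115 ± 6.78 and 113 ± 2.18 CPM. Without WT 3, FcγRIIB-/- 1 or FcγRIIB-/- 4 the list held 2 higher genes in place of 1. Chosen after the values were seen, *Tnf* had a log2 fold change of -0.56 (0.204), and *Il6* and *Il17a* reached at most 77 and 24 counts in any library and were not tested.

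Among 16 Wnt and TGF-β genes that act on OPG expression, 6 were lower, 1 was higher and 9 did not pass, with a median of -0.21. *Ebf2*, a transcription factor required for normal *Tnfrsf11b* expression, was lower (log2 fold change -1.11, edgeR adjusted p = 0.00457). *Sost*, which encodes the Wnt inhibitor sclerostin, had the largest change (-3.56, 0.0395), but its groups overlapped and its WT mean was set by WT 5. Its call was lost when any 1 library labelled FcγRIIB-/- was left out, with log2 fold changes of -3.855 to -3.434 and an adjusted p of up to 0.0960, and without WT 5 it was -1.057 (0.0233). *Tgfb3* was higher (0.24, 0.0401) and lost its call without FcγRIIB-/- 1, 2, 3 or 4 (adjusted p up to 0.0860), which left 0 higher genes in the list. Without FcγRIIB-/- 1 the list held 3 lower genes in place of 6. *Ctnnb1*, the central mediator of Wnt signalling, had a log2 fold change of 0.04 (0.716).

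Downstream of RANK, most adaptors and kinases did not pass the test. Of 21 tested, 5 were lower, 2 higher and 14 not called, with a median log2 fold change of -0.05. The atypical protein kinase C gene *Prkcz* (0.55, edgeR adjusted p = 0.00481) and the p38 activator *Map2k6* (0.46, 0.0130) were higher, whereas *Map3k14*, the kinase of the alternative NF-κB arm, was lower (-0.39, 0.0247) along with *Traf6*. The abundant adaptor *Tab2*, which joins TRAF6 to the kinase TAK1, was lower (-0.26, 0.00997), and the autophagy receptor *Sqstm1*, another TRAF6 partner, was not called (0.12, 0.247). Named after their values were seen, *Map3k7*, which encodes TAK1 itself, and the p38 kinase *Mapk14* completed the 5 lower genes, at -0.22 (0.0140) and -0.21 (0.0205). *Map3k7* was not called without WT 1 (adjusted p = 0.0538), nor *Mapk14* without WT 1, 4 or 5 (up to 0.0763). *Map3k14* lost its call without WT 2, 3 or 5 or FcγRIIB-/- 2 or 4 (adjusted p up to 0.0628), and without WT 1 or WT 5 the list held 3 lower genes. Of the 12 NF-κB genes, the lymphoid subunit *Rel* (-1.53, 8.90e-04) and the feedback inhibitor *Tnfaip3* (-0.70, 0.0288) were lower and 10 were not called, with a median of -0.06. *Tnfaip3* was not called without WT 1 or FcγRIIB-/- 1, 3 or 4 (adjusted p up to 0.0764), which left *Rel*. The abundant *Nfkb1* and *Nfkbia* had log2 fold changes of -0.12 (0.180) and 0.16 (0.297).

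Downstream of CSF1R, 7 of 14 tested genes of the signal relay were lower, 0 were higher and 7 were not called, with a median log2 fold change of -0.20. The ubiquitin ligase *Cbl*, which turns CSF1R over, fell by 1.32 (edgeR adjusted p = 4.95e-04) and the phospholipase *Plcg2*, which raises calcium in hematopoietic cells, fell by 1.08 (0.00544). The abundant PI3-kinase subunit *Pik3r1* was lower by a log2 fold change of -0.30 (0.0102), and *Akt1* was not called (-0.08, 0.327). Without FcγRIIB-/- 2, 4 genes of the list were called lower. In the calcium and calcineurin arm that activates NFATc1, 3 of 15 genes were lower, 1 was higher and 11 were not called (median -0.06). *Rcan2*, a calcineurin inhibitor, was higher (0.59, 0.00434), and the family member *Nfatc2* (-0.87, 0.0296) and the calcium channel *Itpr2* (-0.61, 0.00278) were lower. *Nfatc3*, named after its values were seen, was the remaining lower gene at -0.30 (0.0140). *Nfatc2* lost its call without FcγRIIB-/- 1, 2 or 3, with an adjusted p of up to 0.0783, and without WT 5 its log2 fold change was -0.521 (0.0125).

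Among 12 transcription factors of osteoclast formation, *Nfatc1* and *Spi1*, which encodes PU.1 and acts on the whole myeloid lineage, were lower and 10 were not called, with a median log2 fold change of -0.01. *Spi1* had a log2 fold change of -0.76 (edgeR adjusted p = 0.0208), which was not past the threshold without FcγRIIB-/- 2 (0.0584). The AP-1 members *Jund* and *Fosl2*, the most abundant of the list, had log2 fold changes of 0.03 (0.798) and -0.30 (0.0854). Without WT 4, FcγRIIB-/- 2 or FcγRIIB-/- 3, 1 gene of this list was called higher in place of 0. Of 8 repressors of osteoclast differentiation, 3 were lower, 2 higher and 3 not called (median -0.03). *Irf8*, a myeloid factor that RANKL silences, was lower (-1.10, 0.00423), as were the inhibitory receptors *Ceacam1* (-0.96, 0.00793) and *Lilrb4a* (-0.77, 0.0219). *Id1* (0.46, 0.00565) and *Bcl6* (0.36, 0.0394) were higher. *Lilrb4a* lost its call without FcγRIIB-/- 1 or 2 (up to 0.0627) and *Bcl6* without WT 2, 3 or 5 or FcγRIIB-/- 1, 2 or 3 (up to 0.0983), which left 1 higher gene. *Id2* and *Id3* had log2 fold changes of -0.07 and 0.15 and did not pass.

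The genes that NFATc1 switches on in the mature osteoclast showed the lowest median of the 12 lists, at a log2 fold change of -1.14. Of 14 tested, 9 were lower, 0 higher and 5 not called. *Mmp9*, a matrix gelatinase, fell by 1.84 (edgeR adjusted p = 0.00240), the fusion and adhesion integrin *Itgb3* fell by 1.30 (9.53e-05), and the collagen-degrading protease *Ctsk* fell by 1.03 (6.86e-04). *Ctsk* averaged 471 ± 67.4 CPM in WT and 231 ± 35.9 CPM in the libraries labelled FcγRIIB-/-, and *Mmp9* 265 ± 65.5 and 73.8 ± 31.9 CPM. The 5 not called, named after their values were seen, were the calcitonin receptor *Calcr* (-0.73, 0.157), which had at most 29 counts, the lysosomal acidification genes *Tcirg1* (-0.04), *Clcn7* (-0.08) and *Ostm1* (-0.14), and the kinase *Src* (-0.05). Of these 14 genes 9 also stand in the osteoclast marker list, so the counts of both lists are not separate evidence. Neutrophil and erythroid markers were lower in the same libraries, for 10 of 10 and 7 of 7 genes. The part of osteoclasts and of other cell types in the lower levels of these target genes was not tested.

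**Figure D4:**
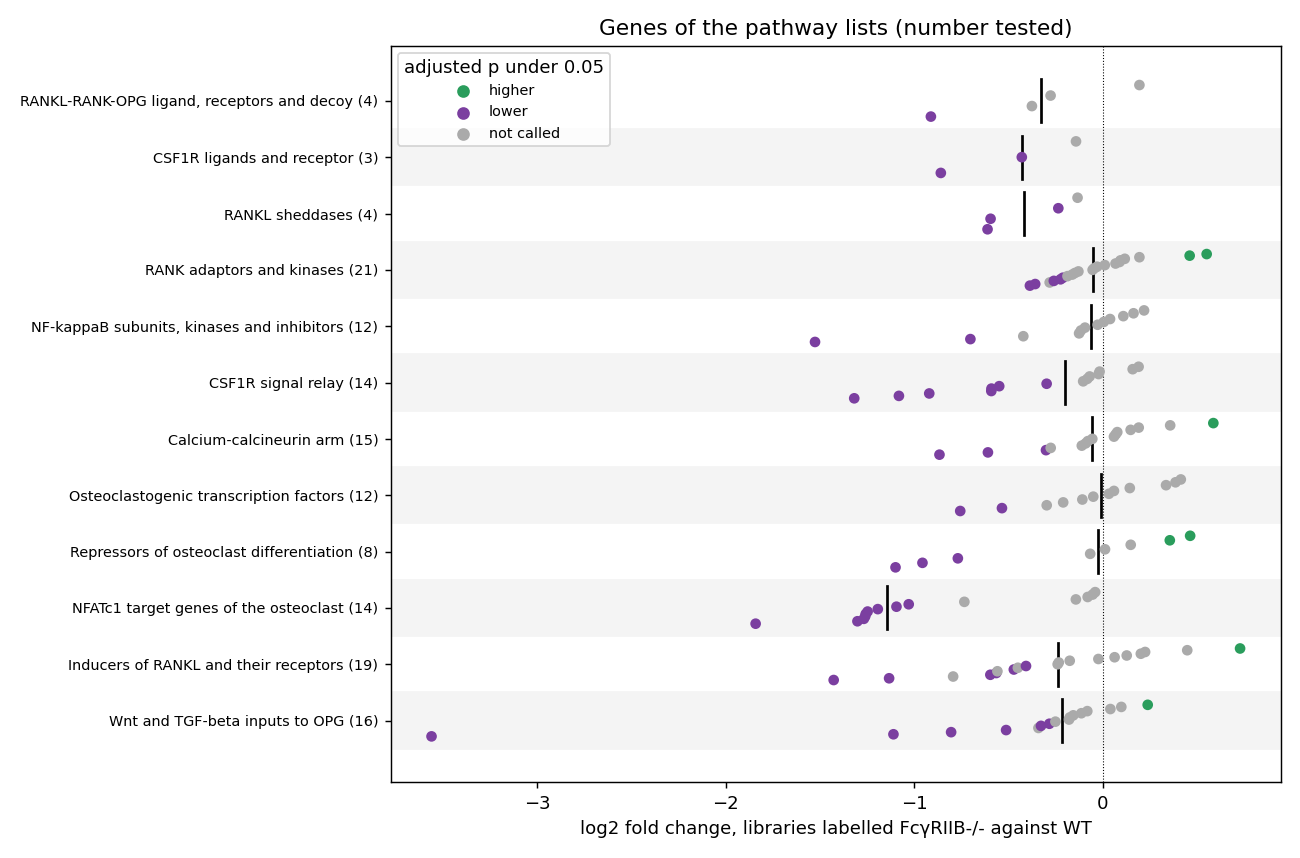
Log2 fold changes of the genes in the 12 pathway lists, 1 point per tested gene, with the number tested in brackets. Green and purple mark genes called higher and lower at an edgeR adjusted p under 0.05, grey the rest, and a black line the list median, which is -1.14 for the NFATc1 targets and between -0.43 and -0.01 for the other lists. The far left point is *Sost*.

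The 7 genes were also set side by side within each library. Relative to the WT mean on a log2 scale, FcγRIIB-/- 4 was at -2.11 for *Tnfsf11* and -1.53 for *Tnfrsf11b* but at -0.07 for *Tnfrsf11a* and -0.46 for *Csf1*. The summed markers in that library were at -1.77 for osteoclasts, -1.32 for periodontal ligament and fibroblasts, 0.02 for osteoblasts and 0.23 for osteocytes. FcγRIIB-/- 3, where *Tnfsf11* was at 0.67, had the least negative macrophage sum of its group, at -0.28. In WT 5 *Tnfrsf11b* was at 0.68, the ligament sum at 0.46, and the tooth-forming odontoblast and ameloblast sum at -0.91. That tooth sum was higher in every library labelled FcγRIIB-/-, at 34200 to 57240 CPM against 12060 to 31140 CPM in WT, with 4 of 7 markers called higher. Skeletal muscle markers, with 3 of 8 called higher, were at 16400 to 28600 CPM against 7158 to 16690 CPM, which overlap. The part of tooth and muscle RNA in the lower levels of the 5 genes was not tested.

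Other cell types that could contribute were described in the same way. Osteocyte markers overlapped between the groups, at 839.2 to 1437 and 935.2 to 1268 CPM, with 3 of 8 called higher and 2 lower. T cell markers were at 12.3 to 64.77 CPM in WT and 8.919 to 14.36 CPM, with 1 of 8 called lower. Chondrocyte markers were at 134.6 to 301.4 and 134 to 499.4 CPM, with 1 of 6 tested called lower. Keratinized epithelium markers were at 3175 to 7544 and 4236 to 5191 CPM, with 5 of 7 tested called lower and 1 higher. That sum was mostly *Krt5*, the higher gene, and *Krt14*, with WT means of 1618 and 2270 CPM. The 5 lower genes had log2 fold changes of -7.27 to -4.18, and the list median was -4.8. Among them, *Lor* was at 376 ± 258 CPM in WT and 3.51 ± 0.76 CPM in the libraries labelled FcγRIIB-/-. No marker of any of the 15 lists was at 0 in all libraries.

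**Figure D5:**
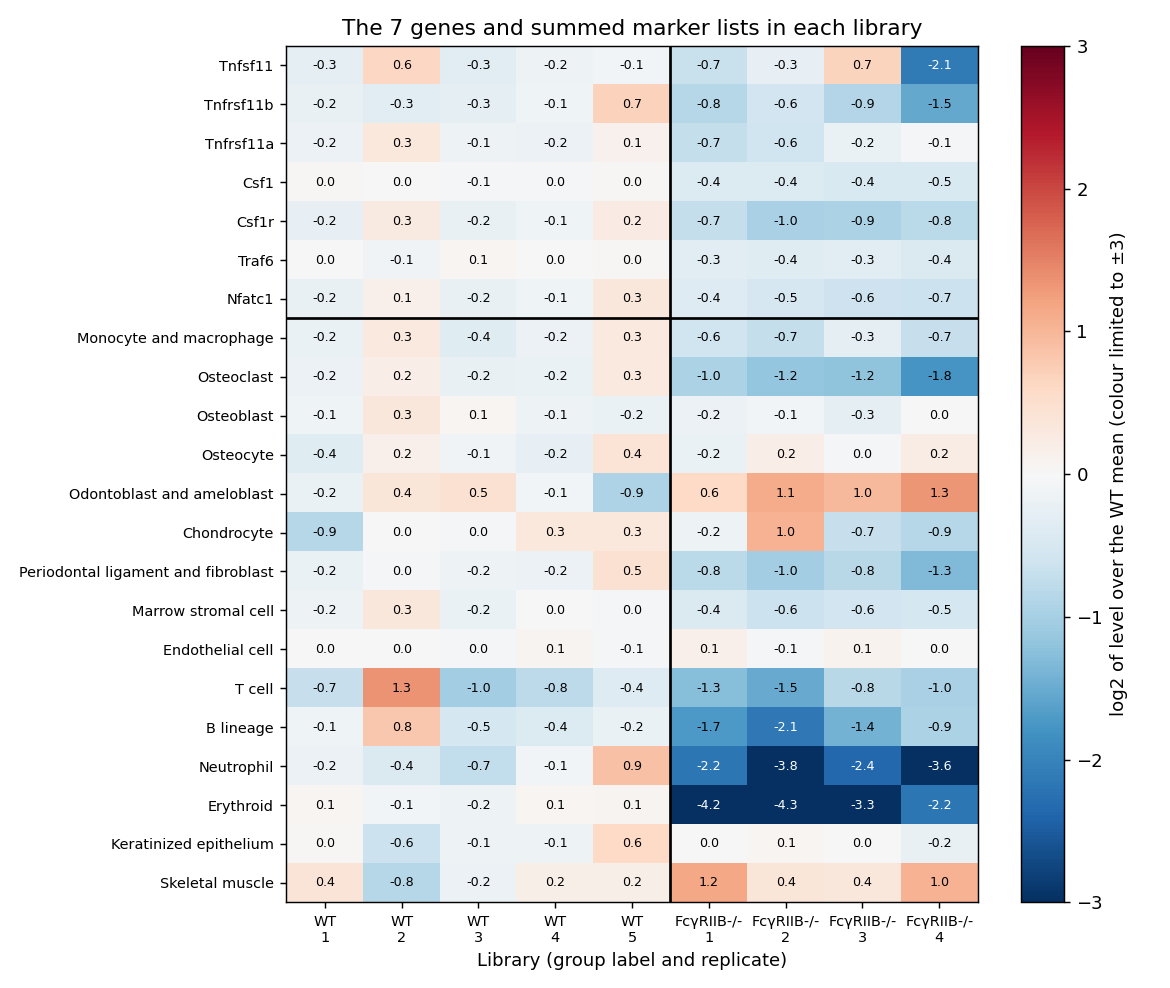
Log2 of the level in each library over the WT mean, for the CPM of the 7 genes (top) and the summed CPM of 15 cell type marker lists (bottom), with the value printed in each cell and colours limited to ±3. The 4 libraries labelled FcγRIIB-/- are below the WT mean for *Tnfrsf11b* (-0.57 to -1.53), *Csf1r* and the osteoclast, ligament, neutrophil and erythroid sums, and above it for the odontoblast and ameloblast sum.

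The genes most alike in their pattern across the 9 libraries were found by Pearson's r of log2 CPM after the mean of each group was removed, among the 12960 genes whose average log2 CPM reached 2. For *Tnfsf11* they were *Dr1* (r = 0.993), *Vcpip1* (0.991) and *Sdf2l1* (0.990). For *Tnfrsf11b* they were *Twsg1* (0.987), *Cast* (0.971) and *Fam83b* (0.967). For *Csf1* they were *Spag5* (0.967), *Pax9* (0.956) and *Ncaph* (0.955), and for *Csf1r* *Pik3cg* (0.942), *Apbb1ip* (0.936) and *Arhgap15* (0.933). These are the top 3 of many genes over few libraries that share their sequencing depth and cell make-up, and they are given as a description.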

How the data were processed

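Poly(A) RNA of whole mandibles was sequenced as 75 bp single-end reads from a directional library kit. The authors ran Trim Galore on the reads, aligned the trimmed reads to mm10 using HISAT 02.1.0 and deposited raw counts per gene from featureCounts, without normalization. The annotation, the strand setting and the treatment of reads matching several genes are not given in the sources used here. Samples were grouped by their titles, and 1 column of per-sample values that matched no sample was not used.

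From the deposited counts, all 9 libraries were fitted with edgeR 4.0.16 in R 4.3.3 (filterByExpr with a minimum count of 10, TMM normalization, quasi-likelihood test of the label without covariates, Benjamini-Hochberg adjustment over all tested genes, threshold 0.05). CPM were scaled by TMM factors and log2 CPM had a prior count of 2. Standard errors were derived from the fold change and its F statistic. Ratios of counts were tested by two-sided exact permutation, with intervals from inverting that test, using Python 3.11.15. DESeq2 1.42.0 was an alternative, and the fit was tested on simulated data. Exon lengths came from GENCODE vM21. No library pair in a group was near-identical.

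The genes and lists were chosen with earlier results of these data known. In lists of at most 8 genes any member could be named, and in longer ones the 2 called genes with the largest fold change in each direction and the 2 most abundant. Exceptions are stated where they occur, and a gene covered by this rule is not reported here. Each mouse is 1 library, the intervals of ratios within a library cover counting error only, and those of group differences cover the spread between mice.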

Additional observations from a re-analysis of the deposited data

Results flagged for a closer look

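Each of the 7 genes and 3 ratios was examined in both groups, 20 groups of values in all, for a library whose gap to its nearest neighbour took up an unusually large part of the range of its group. At the 95% level used, chance alone marks about 1 in 20 groups, and 2 values were marked. *Tnfsf11* in WT 2 was at 13.1 CPM, where the other WT libraries lay between 6.82 and 8.12 CPM and the gap was 0.794 of the range. *Tnfrsf11b* in WT 5 was at 46.9 CPM, where the other WT libraries lay between 23.4 and 26.8 CPM and the gap was 0.853 of the range. No value was marked in the libraries labelled FcγRIIB-/-, although *Tnfsf11* ran from 1.976 to 13.64 CPM there.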

How the results depend on the processing

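The 5 lower calls were kept under 8 alternatives (DESeq2 size factors, upper quartile, library total only, no filter, at least 10 counts in every library, the DESeq2 Wald test, a replicate block, and WT 2 and 5 both left out, the last added after the data were seen) and with each of the 9 libraries left out. Over the left-out libraries the log2 fold change ran from -1.043 to -0.653 for *Tnfrsf11b*, -0.438 to -0.396 for *Csf1*, -0.907 to -0.769 for *Csf1r*, -0.37 to -0.325 for *Traf6*, -0.591 to -0.413 for *Nfatc1* and -0.49 to -0.272 for *Tnfrsf11a*. *Tnfsf11*, never called, ran from -0.814 to 0.028 and was at 0.001 without WT 2 and 5. The *Tnfsf11* to *Tnfrsf11b* difference ran from -0.041 to 0.668, and the *Tnfsf11* to *Tnfrsf11a* difference from -0.521 to 0.453, with 0.294 for medians in place of means. The *Csf1* to *Csf1r* difference ran from 0.349 to 0.48 over left-out libraries, and was 0.33 for medians (exact permutation p = 0.111) and 0.254 without WT 2 and 5 (p = 0.0571). The cause of these changes was not tested.

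Mice that share a replicate number are different animals, and their deviations from the group means correlated at 0.097, 0.028, -0.114 and -0.074, so the numbers did not pair them and 0 of 4 correlated best with their own number. WT 5 has no partner of the same number, so the replicate block also takes WT 5 out of the comparison. With the replicate block 5 genes were still lower, *Tnfsf11* was at -0.494 and the *Csf1* to *Csf1r* difference was 0.362 (exact permutation p = 0.125, the smallest 4 pairs allow). All-gene calls were 2410 lower and 1594 higher with the block, against 3144 and 2289. They were 3781 and 1309 with library totals only, which moved the median log2 fold change to -0.071, and 2066 and 1479 without WT 2 and 5. Of 42 called list genes named, macrophage markers included, 26 kept their call under every alternative that gave an adjusted p, which DESeq2 did not for *Sost*. Of 240 list counts, 26 moved by over 1.5 times, by at most 3 genes. Counting error is largest where counts are low, as for *Tnfsf11* with 39 counts in FcγRIIB-/- 4. That library held 21453880 counts in total, and FcγRIIB-/- 2, with 155 counts of *Tnfsf11*, held 21911165.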
